A study of Homo sapiens with 4 samples.

Results

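The 8 genes described here belong to the feedback control of sterol synthesis and to sterol and lipid transport, in RWP-1 cells, an established human pancreatic cancer cell line. INSIG1, SREBF2 and STARD4 form the SREBP feedback and carrier group, and MYLIP, LPCAT3, PLTP, APOE and APOC1 are targets of the oxysterol receptors. They are 8 of 14884 genes with a named probe set on the array. Each had exactly 1 probe set, selected on the platform annotation, so the rule of taking the probe set with the highest mean over the arrays was not needed. The genes were chosen by a listing made with the rGAL1 minus Ctrl differences of these same arrays already known. Their differences are therefore given as a description, with a standard error (SE) and with no test.

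RNA was measured on 4 arrays, 2 of untreated cells (Ctrl) and 2 of cells treated with rGAL1, from 100 ng of total RNA each. rGAL1 is read here as the recombinant form of galectin-1, a lectin that cells secrete and that recognises sugars carrying galactose. The labels give the short name, and state no dose, duration or vehicle. For the array rGAL1 2 the title and source name say rGAL1, but its treatment field says none. It was kept as rGAL1. The value with this array moved to Ctrl is given for each of the 8 genes. The labels do not state that arrays of a group are separate cultures, so the spread between them may be technical. All cells are of 1 line, and no other line was compared.

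Cells hold membrane cholesterol within narrow limits through a pair of sensors. When sterol in the endoplasmic reticulum is low, the escort protein SCAP carries the SREBP transcription factors to the Golgi, where proteases release them to switch on genes of sterol synthesis and uptake; when sterol is plentiful, INSIG proteins hold the complex back. Oxysterols, which are oxidised cholesterol derivatives, bind the nuclear receptors LXR alpha and LXR beta, whose targets export cholesterol, limit its uptake and remodel phospholipids.

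The start regions of the 3 feedback and carrier genes are shown because the comparison turns on these genes, and that of LPCAT3 is shown beside them as 1 receptor target. The sequences are RefSeq promoter windows on GRCh38.p14, from 250 bases before the transcription start to 50 bases after it, written 5′ to 3′ along the gene. They lie at chr7:155297628-155297927 (plus strand) for INSIG1, chr22:41832855-41833154 (plus strand) for SREBF2, chr5:111512486-111512785 (minus strand) for STARD4 and chr12:7018427-7018726 (minus strand) for LPCAT3. Capitals mark matches to TCACNCCAC, the core of the sterol regulatory element, to the E-box CACGTG and to CCAAT, the site of NF-Y, a factor that often binds beside SREBP. A match on the minus strand of CCAAT appears as ATTGG.
INSIG1: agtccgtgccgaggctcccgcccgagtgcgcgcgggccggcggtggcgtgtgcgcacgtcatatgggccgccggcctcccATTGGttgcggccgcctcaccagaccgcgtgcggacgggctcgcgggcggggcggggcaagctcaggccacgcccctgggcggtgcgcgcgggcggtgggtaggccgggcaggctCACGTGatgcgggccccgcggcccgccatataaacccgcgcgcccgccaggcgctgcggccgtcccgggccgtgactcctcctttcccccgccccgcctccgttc
SREBF2: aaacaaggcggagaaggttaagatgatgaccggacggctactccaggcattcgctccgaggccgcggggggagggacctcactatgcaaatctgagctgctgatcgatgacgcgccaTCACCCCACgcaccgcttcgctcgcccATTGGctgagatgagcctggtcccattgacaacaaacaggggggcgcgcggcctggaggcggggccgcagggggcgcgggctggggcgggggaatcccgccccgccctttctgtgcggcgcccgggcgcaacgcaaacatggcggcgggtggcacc
STARD4: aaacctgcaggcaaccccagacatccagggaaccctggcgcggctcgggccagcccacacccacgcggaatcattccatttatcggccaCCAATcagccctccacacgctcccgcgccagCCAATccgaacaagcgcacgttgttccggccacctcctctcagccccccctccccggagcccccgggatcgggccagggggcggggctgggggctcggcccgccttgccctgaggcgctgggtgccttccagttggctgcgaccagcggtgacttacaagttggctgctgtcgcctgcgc
LPCAT3: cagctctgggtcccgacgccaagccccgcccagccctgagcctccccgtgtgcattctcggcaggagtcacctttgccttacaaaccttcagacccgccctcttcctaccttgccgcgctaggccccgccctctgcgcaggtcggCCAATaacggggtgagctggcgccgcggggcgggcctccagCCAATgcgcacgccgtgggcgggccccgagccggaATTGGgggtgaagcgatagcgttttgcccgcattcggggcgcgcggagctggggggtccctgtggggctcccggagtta

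The SREBF2 window holds TCACCCCAC on the plus strand at positions -133 to -125 from the start, and a CCAAT box on the minus strand at -106 to -102. INSIG1 holds the E-box at -55 to -50 and a minus-strand CCAAT box at -170 to -166. STARD4 holds CCAAT boxes at -161 to -157 and at -130 to -126, and LPCAT3 holds 3 of them. Among the receptor targets not shown, MYLIP holds 2 minus-strand CCAAT boxes. PLTP and APOE each have more than 1 window, with positions counted from the start of each window's own transcript. PLTP holds the E-box at 43 to 48 in 1 of its windows. APOE holds a minus-strand CCAAT box at -27 to -23 in 1 window and at -202 to -198 in another. The shares that follow take 1 window per gene, so these genes had more sequence searched. Over 27305 promoter windows of the same length, 1 for each gene, searched on both strands, TCACNCCAC occurs in 1.15%, CACGTG in 7.43% and CCAAT in 35.7%. GGGCGG, the GC box, occurs in 44.6% of windows, in each of the 4 shown and in at least 1 window of every other member. The 4 windows shown are 68.0% to 78.3% G or C, where the median over all windows is 58.3%. This limits a reading against the 44.6%. Direct repeats of the receptor hexamers AGGTCA, besides AGTTCA, besides GGGTCA, besides GGTTCA, in any combination, spaced by 4 bases, occur in 0.0769% of windows and in none of the windows of the 8 genes. These matches describe the letters of the windows and do not show that a factor binds.

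All 8 genes gave a signal above the dim level of 4.70, the median of all probe sets' means, on the log2 scale of the deposited values. Signals of different probe sets depend on their probes as well as on transcript number, so these distances from the dim level do not order the genes by transcript number. INSIG1 lay 4.28 log2 units above the dim level, PLTP 4.15, STARD4 3.82, LPCAT3 3.40 and SREBF2 3.24. MYLIP lay 1.24 above it, APOC1 1.18 and APOE 0.41. APOE, the apolipoprotein E gene, is thus the 1 member measured close to the dim level, where RMA compresses differences.

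**Figure D1:**
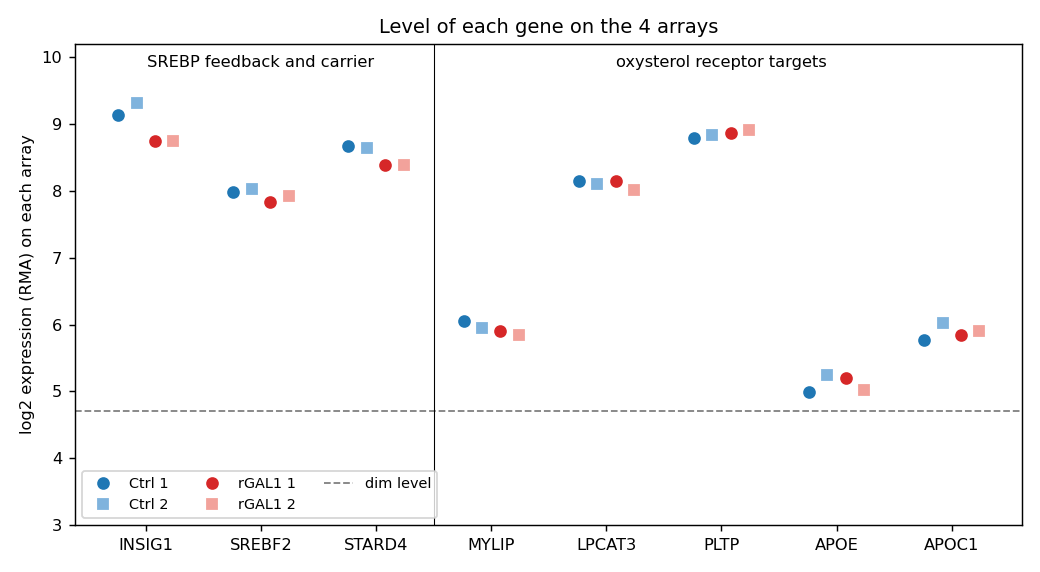
Log2 expression of each of the 8 genes on each of the 4 arrays (Ctrl in blue, rGAL1 in red, circles for the arrays numbered 1 and squares for those numbered 2), with the dim level of 4.70 as a dashed line. INSIG1, STARD4, SREBF2, LPCAT3 and PLTP lie far above the line, and APOE lies nearest to it.

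Over the whole array the rGAL1 and Ctrl groups were not separated. With limma, 0 of 53617 probe sets passed an adjusted p under 0.05, which is 0%; the smallest adjusted p was 0.919 and 2807 probe sets had an unadjusted p under 0.05. The SD of the difference between 2 arrays was 0.27 to 0.30 log2 units, within groups and across them alike. It was smallest, at 0.275, between Ctrl 1 and rGAL1 2, the array with the conflicting label. Between the rGAL1 arrays it was 0.285 and between the Ctrl arrays 0.299. What this means for that label was not tested. All 6 measured epithelial and ductal markers (KRT19, KRT7, KRT8, KRT18, EPCAM and SOX9) were above the dim level, and both fibroblast markers (DCN and LUM) were below it. Macrophage markers, which matter here because macrophages make much APOE and PLTP, were above it for 2 of 5 (CD14 and CSF1R). Their summed linear signal was 113 to 119 in Ctrl and 114 to 123 in rGAL1. Of the hepatocyte markers, 2 of 7 were above the dim level (APOA1 and TTR), with sums of 163 to 177 in Ctrl and 161 to 162 in rGAL1. Of the acinar markers, 2 of 4 were above it (CPA1 and CTRB1), with sums of 85 to 95 in Ctrl and 103 to 116 in rGAL1. The sums for the epithelial markers were 8458 to 8795 in Ctrl and 8445 to 8455 in rGAL1. The hepatocyte, acinar and epithelial sums do not overlap between the groups, and their part in the results was not tested.

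The SREBP feedback and carrier genes were lower on both rGAL1 arrays, and the oxysterol receptor targets were not separated in a common direction. All 3 feedback and carrier genes had both rGAL1 arrays below both Ctrl arrays, with a median difference of -0.27 log2 units. Of the 5 receptor targets, 1 lay below in this way, 1 lay above and 3 overlapped, with a median of -0.026. By sign alone, 4 of the differences were negative and 1 was positive. Of the negative ones, those of LPCAT3, APOE and APOC1 changed sign when an array was left out. Over all 14884 named genes, the groups were separated with rGAL1 lower in 17% and with rGAL1 higher in 20.2%, and the median difference was 0.0056. Since these genes were listed with this contrast known, nothing is read from their counts against those shares.

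INSIG1, the retention protein of the SREBP complex and itself an SREBP target, measured 9.13 and 9.31 on the Ctrl arrays and 8.75 and 8.74 on the rGAL1 arrays. The rGAL1 arrays were nearly equal, and the lower Ctrl array was 0.38 log2 units above both. The difference of means was -0.47 (SE 0.11), a 1.39-fold lower level. In absolute size this exceeds 99.4% of named genes, but nothing is read from that rank, since the gene was listed with this contrast known. The Ctrl arrays themselves differed by 0.18. With rGAL1 2 counted as a control the difference was -0.31, and without any 1 array it lay between -0.56 and -0.38.

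STARD4 encodes a soluble carrier that moves cholesterol between membranes, and is also switched on by SREBP. It measured 8.67 and 8.64 in Ctrl and 8.39 on each rGAL1 array. Here both groups were tight, with Ctrl arrays 0.032 apart and the groups separated by 0.25. The difference was -0.27 (SE 0.097), a 1.20-fold lower level, and -0.18 with rGAL1 2 counted as a control. Leaving out any 1 array kept it between -0.28 and -0.25. STARD4-AS1, which runs antisense to STARD4, measured 5.47 and 5.44 in Ctrl and 5.31 and 5.41 in rGAL1, a difference of -0.093 (SE 0.10).

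SREBF2 encodes SREBP2, the factor that chiefly drives sterol synthesis and that acts on its own promoter. It measured 7.98 and 8.03 in Ctrl and 7.83 and 7.92 in rGAL1. The groups did not overlap, but the nearest arrays, Ctrl 1 and rGAL1 2, were only 0.067 apart. The difference was -0.13 (SE 0.10), the smallest of the 3 in size. It was -0.15 with rGAL1 2 counted as a control, and -0.18 to -0.089 without any 1 array.

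An intron of SREBF2 holds the gene of miR-33a, a microRNA that represses cholesterol exporters, and SREBF1 holds that of miR-33b. The mature RNAs are shown because they share the seed, bases 2 to 8, given in capitals; the sequences are from RefSeq on GRCh38.p14.
miR-33a-5p: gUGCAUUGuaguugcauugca
miR-33b-5p: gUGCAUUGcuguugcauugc

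The MIR33A probe set was below the dim level on every array, at 3.63 and 3.45 in Ctrl and 3.42 and 3.41 in rGAL1. Its difference was -0.13 (SE 0.11). MIR33B measured 6.28 and 6.41 in Ctrl and 6.33 and 6.40 in rGAL1, with overlapping groups and a difference of 0.024 (SE 0.11). Moving rGAL1 2 to Ctrl gave -0.079 for MIR33A and -0.030 for MIR33B. These probe sets, picked after the values of the host genes were seen, are annotated to the precursor genes and do not tell the mature RNA from the precursor.

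**Figure D2:**
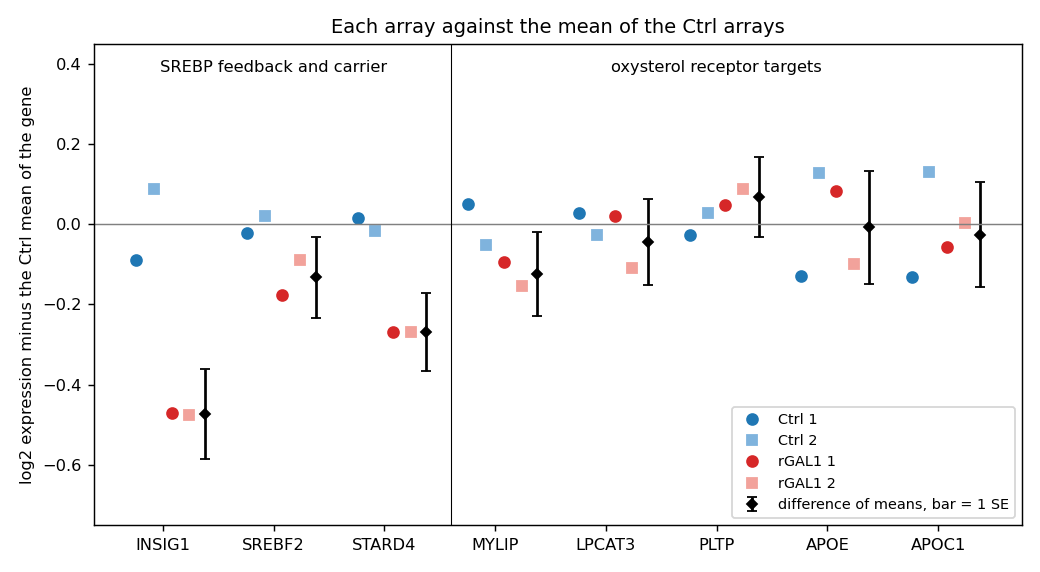
Log2 expression of each array minus the Ctrl mean of the same gene (coloured points), with the rGAL1 minus Ctrl difference of means as a black diamond and bars of 1 SE from the limma fit. The rGAL1 points of INSIG1 and STARD4 lie apart from the Ctrl points, at differences of -0.47 and -0.27, while those of LPCAT3, APOE and APOC1 lie among them.

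Among the oxysterol receptor targets, MYLIP encodes a ubiquitin ligase, IDOL, that limits lipoprotein uptake. It measured 6.05 and 5.95 in Ctrl and 5.91 and 5.85 in rGAL1. The groups did not overlap, with 0.043 between the nearest arrays, less than the 0.10 between the Ctrl arrays. The difference was -0.12 (SE 0.10), -0.073 without Ctrl 1 and -0.043 with rGAL1 2 counted as a control.

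LPCAT3, an acyltransferase of the endoplasmic reticulum that puts polyunsaturated chains into phospholipids, measured 8.15 and 8.10 in Ctrl and 8.15 and 8.02 in rGAL1. The groups overlapped, since rGAL1 1 matched Ctrl 1 and rGAL1 2 was the lowest array. The difference was -0.043 (SE 0.11, 95% interval -0.32 to 0.24), 0.022 without rGAL1 2 and 0.058 with that array counted as a control.

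PLTP, the plasma phospholipid transfer protein, measured 8.79 and 8.84 in Ctrl and 8.87 and 8.91 in rGAL1. It is the member whose rGAL1 arrays both lay above both Ctrl arrays, by 0.021 at the nearest. The difference was 0.069 (SE 0.099, 95% interval -0.19 to 0.33), 0.041 without Ctrl 1 and 0.019 with rGAL1 2 counted as a control.

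APOE and APOC1 are neighbours in the apolipoprotein cluster of chromosome 19 and encode small exchangeable proteins of lipoprotein particles. APOE measured 4.98 and 5.24 in Ctrl and 5.20 and 5.01 in rGAL1, so that the rGAL1 arrays lay inside the range of the Ctrl arrays. The difference was -0.0078 (SE 0.14, 95% interval -0.37 to 0.36). It was -0.14 without Ctrl 1 and 0.12 without Ctrl 2, so its sign differed with the control left out. Without rGAL1 2 it was 0.083, and with rGAL1 2 counted as a control 0.12. APOC1 measured 5.76 and 6.03 in Ctrl and 5.84 and 5.90 in rGAL1, again inside the Ctrl range. Its difference was -0.026 (SE 0.13, 95% interval -0.37 to 0.31), -0.16 without Ctrl 1 and 0.11 without Ctrl 2. It was -0.056 without rGAL1 2 and -0.057 with rGAL1 2 counted as a control. For both genes Ctrl 2 read higher than Ctrl 1, by 0.26 in each case, whereas rGAL1 2 read lower than rGAL1 1 for APOE and higher for APOC1. APOC1P1, a pseudogene copy of APOC1 whose transcripts the probes could share, was below the dim level in both groups, at means of 3.91 and 3.72.

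The intervals of these receptor targets are wide against their differences. For LPCAT3, PLTP, APOE and APOC1 alike the lower bound is -0.19 or below, past the -0.13 measured for SREBF2. These data therefore do not show that the receptor targets stayed level. The interval of SREBF2, -0.40 to 0.13, covers both signs as well.

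Taken array by array, the median difference of the feedback and carrier genes was that of STARD4 in each of the 4 comparisons across groups. It was -0.28 for rGAL1 1 minus Ctrl 1, -0.25 for rGAL1 2 minus Ctrl 2, -0.28 for rGAL1 2 minus Ctrl 1 and -0.25 for rGAL1 1 minus Ctrl 2. INSIG1 varied more with the arrays chosen, from -0.57 to -0.38, and SREBF2 ranged from -0.20 to -0.067. The mean over the 3 genes was -0.27, -0.31, -0.25 and -0.34 in the same order. Within groups the median was 0.044 for Ctrl 2 minus Ctrl 1 and -0.00016 for rGAL1 2 minus rGAL1 1. The receptor targets gave 0.075, -0.10, 0.030 and -0.043 for the 4 comparisons across groups, in the same order, and 0.056 and -0.058 within the groups. Their median thus changed sign with the arrays chosen, and its size across groups was of the same order as within them.

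The gap between the gene groups, the median of the feedback and carrier genes minus that of the receptor targets, was -0.24 log2 units. Between arrays of the same number it was -0.36 for the arrays numbered 1 and -0.15 for those numbered 2. Within groups the same gap was -0.012 between the Ctrl arrays and 0.058 between the rGAL1 arrays. Leaving out 1 array moved it between -0.38, without Ctrl 2, and -0.17, without rGAL1 1. No test is given, because the genes were listed with the contrast known and 2 arrays against 2 cannot reach a permutation p under 0.05.

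**Figure D3:**
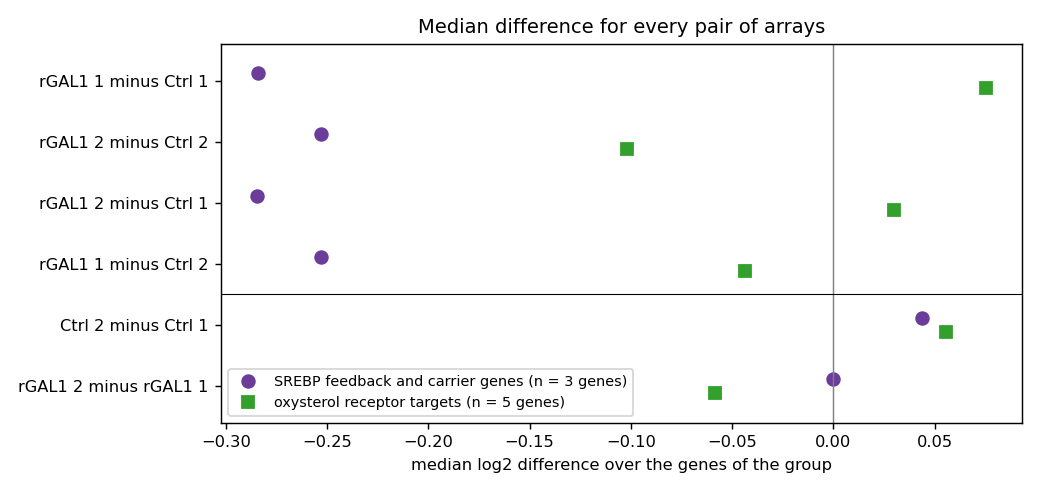
Median log2 difference over the 3 SREBP feedback and carrier genes (purple circles) and over the 5 oxysterol receptor targets (green squares) for each of the 4 pairs of arrays across groups, above the line, and for the pairs within groups, below it. The purple circles, which across groups are the values of STARD4, lie between -0.28 and -0.25 there and near 0 within groups, and the green squares scatter on both sides of 0 in both.

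The wider pathways were described with 8 lists of related genes, which held 63 measured genes besides the members. With limma and adjustment over all probe sets, 0 of these 63 passed an adjusted p under 0.05, and 8 had an unadjusted p under 0.05. In the same fit 2807 of all 53617 probe sets had such an unadjusted p. Sterol synthesis enzymes made up 7 of the 8, a list known to be low before it was set beside the members. The other was APOB, below the dim level at means of 4.67 in Ctrl and 4.34 in rGAL1. Nothing is read from this count. Of the 9 further genes of the SREBP feedback machinery, 1 had both rGAL1 arrays below both Ctrl arrays, where 17% of named genes did. Another 3 had both above, where 20.2% did. The median was 0.035, which was 0.066 with rGAL1 2 moved to Ctrl and 0.00090 without rGAL1 1. The gene below was SREBF1, which encodes the SREBP of fatty acid synthesis, at 7.41 in Ctrl and 7.28 in rGAL1, a difference of -0.14 (SE 0.098; -0.079 with rGAL1 2 counted as a control). The genes above were ERLIN1 (0.17, SE 0.10) and ERLIN2 (0.14, SE 0.10; 0.088 without rGAL1 1), membrane proteins of the endoplasmic reticulum linked to sterol-dependent control, and PAQR3 (0.11, SE 0.10; 0.064 without rGAL1 2 and 0.015 with it counted as a control), a Golgi anchor for the SREBP complex. SCAP, the escort, differed by 0.030 (SE 0.099, 95% interval -0.23 to 0.29).

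INSIG2, the close relative of INSIG1 with the same retention role but not driven by SREBP2 in the same way, differed by 0.00034 (SE 0.11, 95% interval -0.28 to 0.28) with means of 7.47 in both groups. The INSIG paralogs thus gave differences of -0.47 and near 0 on the same arrays, and the difference between them was not tested.

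SREBP2 targets outside the synthesis route leave 2 genes once the members are set aside. The members on this list were INSIG1, SREBF2, STARD4 and also MYLIP, which is grouped above with the receptor targets. TMEM97, a sterol-regulated membrane protein that binds NPC1, differed by -0.17 (SE 0.10; -0.069 with rGAL1 2 counted as a control) with groups that did not overlap. LPIN1, a phosphatidate phosphatase, differed by -0.19, with groups that overlapped. NPC1, SCARB1 and MBTPS1 had no named probe set and are not analysed here. Sterol synthesis enzymes were measured for 14 genes, of which 13 had both rGAL1 arrays below both Ctrl arrays, where 17% of named genes did. Their median was -0.28, beside the -0.27 of the feedback and carrier genes, and these medians became -0.15 and -0.18 when rGAL1 2 was moved to Ctrl. That list was known to be low before it was set beside them, so it is no independent support.

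For the oxysterol receptors, the genes of LXR alpha and beta and of their partners had no named probe set, nor did the exporters ABCA1 and ABCG1, so the most direct readouts of the route are not analysed here. Among 6 further targets the median was -0.13 (-0.083 without rGAL1 2 and -0.037 with it counted as a control). Without overlap, 3 lay below and 1 above, where 17% and 20.2% of named genes did. Of the 3 below, 1 is SREBF1, which is also counted in the feedback machinery list above. SCD, a desaturase that SREBP1 controls as well, differed by -0.23 (SE 0.099; -0.12 with rGAL1 2 counted as a control). Another, dimmer probe set of SCD gave -0.36. EEPD1 differed by -0.14, between -0.25 without rGAL1 1 and -0.039 without rGAL1 2, and by 0.043 with rGAL1 2 counted as a control. CD5L, a macrophage protein near the dim level, differed by 0.23, and by 0.037 without Ctrl 2.

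Of 17 further genes of intracellular sterol transfer and esterification, 8 had both rGAL1 arrays above both Ctrl arrays, where 20.2% of named genes did, and 1 had both below, with a median of 0.071 that was 0.042 without Ctrl 1. Moving rGAL1 2 to Ctrl gave a median of 0.039, NCEH1 then differed by 0.046 and GRAMD1A by -0.078. The differences were small. SOAT2, which esterifies cholesterol, differed by 0.17 (SE 0.12; 0.078 without Ctrl 2), GRAMD1C, a sterol transporter between membranes, by 0.16 (SE 0.11) and NCEH1, a hydrolase of cholesterol esters, by 0.10 (SE 0.10; 0.060 without Ctrl 2). GRAMD1A, a relative of GRAMD1C, differed by -0.14 (SE 0.11, and -0.046 without Ctrl 2). SOAT1, the main esterifying enzyme outside liver and gut, differed by 0.13 (SE 0.12; 0.028 without Ctrl 2) with overlapping groups. STARD4, at -0.27, belongs to this list too. STARD3 and STARD5, carriers of the same domain family, differed by 0.042 and 0.073.

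In the list of lipoproteins, their receptors and plasma transfer, 10 further genes had a median of -0.062, which was 0.0029 without rGAL1 1 and -0.16 without rGAL1 2. Moving rGAL1 2 to Ctrl gave a median of -0.15, LRP1 then differed by 0.065 and APOC3 by 0.037. APOM differed by 0.16 (SE 0.097), LRP1, an endocytic receptor for APOE, by 0.10 (SE 0.10; 0.063 without Ctrl 1), APOC3 by 0.087 (SE 0.098) and APOA1 by -0.13 (SE 0.11; -0.067 without rGAL1 1). LPCAT3's relatives among the phospholipid acyltransferases had a median of 0.0029 over 6 genes (-0.038 to 0.064 without any 1 array), with MBOAT1 at 0.18 (SE 0.10), LPGAT1 at 0.16 (SE 0.11; 0.095 without Ctrl 1), MBOAT7 at -0.12 (SE 0.098; -0.055 with rGAL1 2 counted as a control) and LPCAT4 at -0.10 (SE 0.099). Of oxysterol formation and removal 2 genes were measured. EBP, a sterol isomerase also counted among the synthesis enzymes, differed by -0.27 (SE 0.098; -0.15 with rGAL1 2 counted as a control), and CH25H, the cholesterol 25-hydroxylase, was below the dim level at 3.89 and 4.00.

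**Figure D4:**
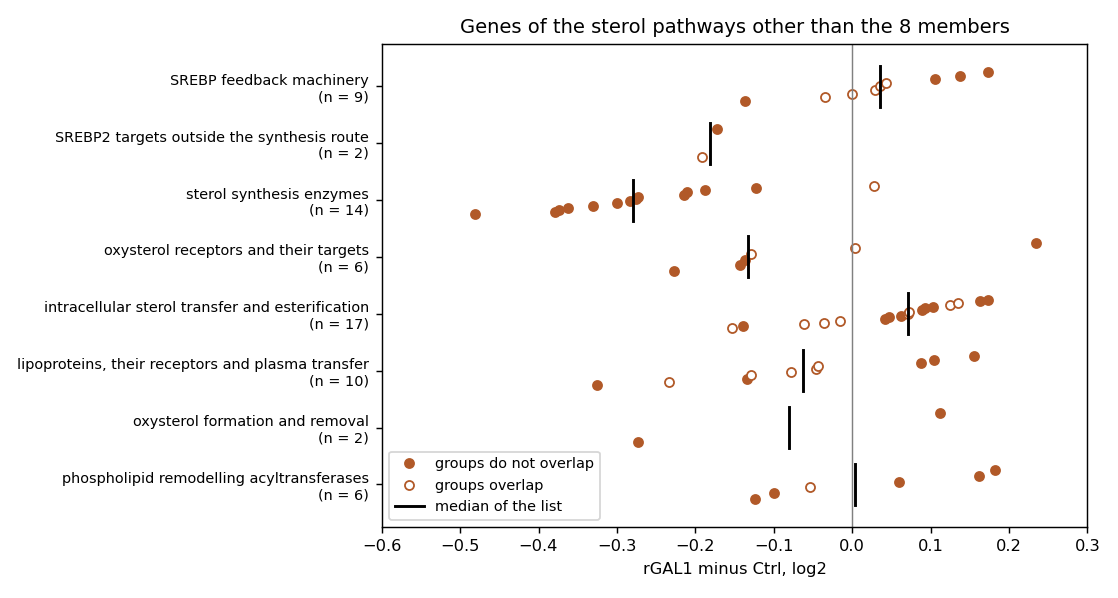
rGAL1 minus Ctrl differences on the log2 scale for the 63 genes of 8 sterol pathway lists other than the members (filled points, groups that do not overlap; open points, groups that overlap; bars, the median of each list; some genes are in more than 1 list). The synthesis enzymes centre on -0.28, the sterol transfer genes on 0.071, and the other lists lie between -0.18 and 0.035.

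The genes whose pattern over the 4 arrays was most like that of INSIG1 were sought among 10683 genes with a mean above the dim level. The measure was the root mean square distance between values centred on each gene's mean. ACSS2, an acetyl-CoA synthetase, came nearest at 0.023 log2 units, and ACAT2, an acetyl-CoA acetyltransferase, followed at 0.024. ACSS2 measured 7.70 and 7.90 in Ctrl and 7.38 and 7.34 in rGAL1. ACAT2 measured 8.80 and 8.95 in Ctrl and 8.37 and 8.42 in rGAL1. ERLN (0.028), NPPA-AS1 (0.035) and GNE (0.035) came next. ERLN was above the dim level in Ctrl, at 4.92 and 5.06, but below it in rGAL1, at 4.46 and 4.47. As the choice by distance implies, all 5 shared with INSIG1 the order of the Ctrl arrays, with Ctrl 2 the highest, and rGAL1 arrays close to each other. PLTP was the receptor target taken for the same search, by a rule on probe set signal. Its nearest were AGER (0.0048), GSK3A (0.0052), RTTN (0.0068), BTRC (0.0079) and CD9 (0.0081). Their differences were 0.062 to 0.075, close to that of PLTP by the same choice. A pattern as flat as that of PLTP has close neighbours among many genes. With 4 arrays such likeness is a description of these arrays alone.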

How the data were processed

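The deposited values are log2 expression per probe set on single-channel arrays. The submitters' processing notes name RMA and limma; the version of each is not given in the sources used here. As background, RMA subtracts background, puts arrays on a common scale and summarises the probes, and it shrinks differences of dim probe sets. Array medians were 4.69 to 4.72. Of 53617 probe sets, 16098 had 1 gene symbol in the platform annotation and 37519 had none; all 16098 matched a current gene record by Entrez ID. A gene with several was represented by the brightest. Groups came from the titles.

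All probe sets were fitted with limma 3.58.1 in R 4.3.3 (lmFit, eBayes, no block, two-sided, Benjamini-Hochberg over 53617), which left 2 residual and 2.75 prior degrees of freedom; precision is limited by having 4 arrays. The code was tested on simulated data. The members and lists were chosen with earlier results of these data known. Besides the members, pathway genes were named by a rule: up to 4 per list with the largest difference, above the dim level and without overlap, plus textbook anchors; CH25H, LPIN1, STARD3 and STARD5, and the genes that host, copy or run antisense to a member, were added after their values were seen. Alternatives were the replicate block, the label of rGAL1 2, leaving out arrays, other scalings, other filters and priors, and other probe sets.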

Additional observations from a re-analysis of the deposited data

How the results depend on the processing

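With limma, 0 probe sets and 0 of the 63 further pathway genes passed in every fit tried: the replicate block (0), rGAL1 2 counted as a control, each array left out, median centring, quantile normalization, an intensity trend, probe sets above the dim level, probe sets with 1 symbol, and an adjusted p under 0.1. The main fit used no block because the labels do not say what the shared numbers mean. Over all probe sets, arrays sharing a number did not deviate together (r = -0.048). With 2 arrays a group this value cannot decide whether the arrays were paired.

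The median of the feedback and carrier genes was -0.18 with rGAL1 2 counted as a control and -0.28 to -0.25 without 1 array. That of the receptor targets ranged from -0.098 to 0.096 without 1 array, and the gap between the groups from -0.38 to -0.17. INSIG1, STARD4, SREBF2, MYLIP and PLTP kept their sign under the 7 alternatives that could move their values, whereas LPCAT3 and APOC1 changed sign under 2 and APOE under 4. Counts of separated genes without rGAL1 2 were added after seeing the data, and are not given because leaving out an array cannot lower them. Having 2 arrays a group and the closeness of APOE to the dim level limit what can be seen.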
